A study of Mus musculus with 4 samples.

Results

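Chromatin accessibility was examined at 9 genes of matrix proteolysis and plasminogen activation, *Mmp2*, *Mmp3*, *Mmp9*, *Mmp10*, *Mmp13*, *Mmp14*, *Plau*, *Plaur* and *Timp1*, out of 21938 protein-coding genes of GENCODE M21. The genes were chosen by function, and every ATAC-seq peak in a gene body with 20 kb on each side was taken as belonging to its gene. The peaks came from 4 untreated cell lines, SMC#1, SMC#2, non-SMC#1 and non-SMC#2, with 1 library per line. SMC lines derive from NCAMhi CD44lo/- cells and non-SMC lines from NCAMlo CD44hi cells, sorted by FACS from primary lung tumors of *RP* mice, in which *Rb1* and *Trp53* are deleted by adenoviral Cre. Both deletions were therefore shared by all 4 lines, as were the mixed background of C57Bl/6, Balb-c and S129 and the serum-containing culture medium. SMC lines grow in suspension and non-SMC lines attached, so growth form and cell type cannot be told apart here. Lines with the same number are described as paired, and the sources used here do not give the mouse that each line came from, its age or whether a line is 1 clone.

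The matrix metalloproteinases (MMPs) are zinc enzymes that cut collagens and other proteins of the extracellular matrix. The urokinase *Plau*, held at the cell surface by its receptor *Plaur*, turns plasminogen into plasmin, which degrades fibrin and can activate MMP precursors, and *Timp1* encodes a secreted inhibitor of MMPs. Several of these genes are textbook targets of AP-1 and of ETS factors of the PEA3 group, which bind their promoters and upstream enhancers in migrating, wounded or transformed cells.

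On chromosomes 1 to 19, X and Y the lists held 91057 peaks (SMC#1), 153954 (SMC#2), 115837 (non-SMC#1) and 128710 (non-SMC#2). A peak carried its fold enrichment, the read pileup at its summit over that of the local background, and a -log10 q, and a peak with a -log10 q of at least 5 is called strong. The background per library, recovered from these values, was 0.456, 1.54, 1.49 and 0.639 in the same order, so that fold enrichment and q depended on the depth of their own list. At this background a pileup of up to 2 reads went unlisted in SMC#1 and non-SMC#2, and of up to 4 in SMC#2 and non-SMC#1. A stretch without a peak was therefore one where accessibility was not detectable at this depth, and fewer open cells and weaker opening per cell cannot be told apart. With 2 libraries per type, the smallest p that a two-sided exact permutation test allows is 0.333, so the types were compared by values and counts and not tested. Markers of SMC did not all follow the labels. Of the markers read, the promoter of *Chga*, a neuroendocrine granule gene, had peaks in both SMC lines but in no non-SMC line, while that of *Ncam1*, the gene of the sort marker NCAM, had a strong peak in all 4 lines and its window held 8 regions open in both non-SMC lines alone and 2 open in both SMC lines alone. The promoter of *Sox11* had a peak in all 4 lines, with its highest fold of 9.25 in non-SMC#1, and that of *Neurod1* had peaks in all but SMC#1, with its highest fold of 9.94 in SMC#2. The promoters of *Insm1* and *Nkx2-1* had peaks in both SMC lines and in 1 non-SMC line. Those of *Cd44* and *Vim* had strong peaks in both non-SMC lines but in no SMC line. The promoter of *Epcam*, an epithelial surface gene, had peaks at fold 7.59 and 7.37 in SMC#1 and #2 and none in the non-SMC lines.

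The promoter sequences of *Mmp3*, *Mmp10*, *Mmp13* and *Plaur* are shown for their AP-1 element TGACTCA, searched on both strands. Each is the 120 bases upstream of the start in RefSeq (GRCm38.p6), with the element in capitals as it reads on the strand of the gene, where TGAGTCA is its reverse complement.
*Mmp3* (chromosome 9): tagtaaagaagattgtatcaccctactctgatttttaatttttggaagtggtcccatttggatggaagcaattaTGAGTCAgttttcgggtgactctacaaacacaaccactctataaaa
*Mmp10* (chromosome 9): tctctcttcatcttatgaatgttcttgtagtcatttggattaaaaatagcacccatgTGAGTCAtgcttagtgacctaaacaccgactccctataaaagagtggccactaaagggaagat
*Mmp13* (chromosome 9): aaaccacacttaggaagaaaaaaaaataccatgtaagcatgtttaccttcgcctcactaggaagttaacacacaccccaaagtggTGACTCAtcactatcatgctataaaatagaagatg
*Plaur* (chromosome 7): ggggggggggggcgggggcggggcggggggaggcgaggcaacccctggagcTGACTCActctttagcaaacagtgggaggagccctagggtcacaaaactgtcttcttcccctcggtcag
The middle of the element lay at -43, -60, -32 and -66 bases from the start in this order. Counts were made over RefSeq promoters of 300 bases, 250 upstream and 50 downstream of the start, so the printed 120 bases are a part. These promoters were matched for 6 of the 9 genes, with *Mmp2*, *Mmp9* and *Plau* missing. Of these 6, 4 held the AP-1 element, against 5.2% of all 32851 RefSeq promoters of that length. *Mmp14* and *Timp1* did not hold these letters. The PEA3 letters AGGAAG were found in the 300 bases of 5 of the 6, against 35.4% of all promoters. At *Mmp3* and *Plaur* they were not within the printed 120 bases. At *Mmp3* a peak covered the AP-1 element in both non-SMC lines but in no SMC line. At *Mmp10* it was covered in both non-SMC lines and in SMC#1, at *Mmp13* in non-SMC#2 alone, and at *Plaur* in no line.

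The 9 windows together held more peaks in the non-SMC than in the SMC lines, and the difference was larger among strong peaks. SMC#1 had 37 peaks in them, SMC#2 had 47, non-SMC#1 had 60 and non-SMC#2 had 52, or 42 ± 7.07 in SMC and 56 ± 5.66 in non-SMC (SD, n = 2). The groups did not overlap, and the difference of SMC minus non-SMC was -14 against a pooled SD of 6.4. Strong peaks numbered 3, 8, 30 and 14, or 5.5 ± 3.54 in SMC and 22 ± 11.3 in non-SMC. Non-SMC#1 stood well above the other libraries, and it also had the most strong peaks in its whole list, with 43984 against 25103 in non-SMC#2. Per 10000 strong peaks of a list, the windows held 2.3 in SMC#1, 3.04 in SMC#2, 6.82 in non-SMC#1 and 5.58 in non-SMC#2, so the order of the types was also seen relative to the length of each list. Over all peaks the same ratio was 4.06, 3.05, 5.18 and 4.04, where SMC#1 and non-SMC#2 were level.

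**Figure D1:**
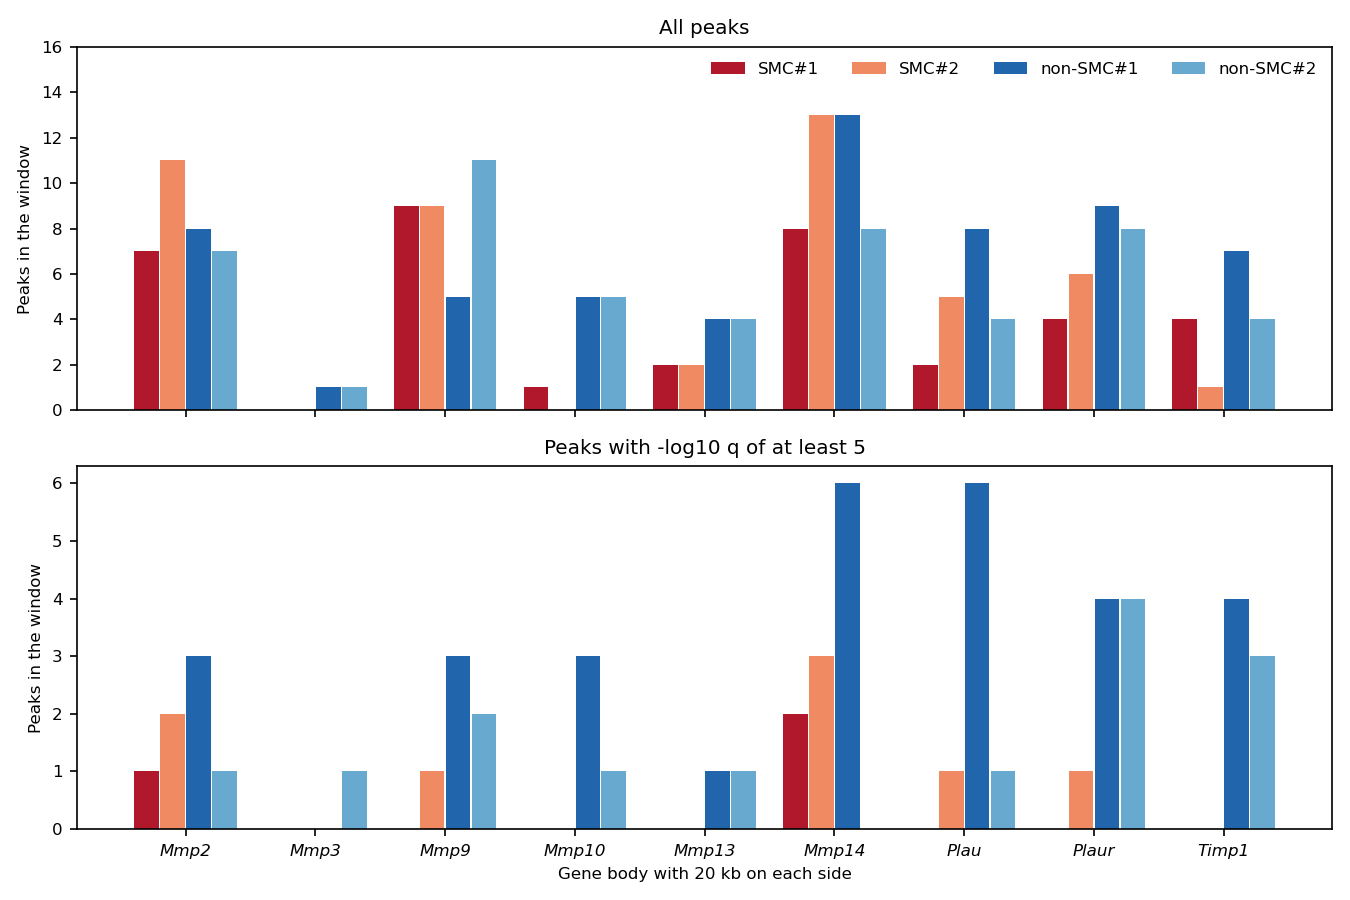
Bars give the number of peaks in each gene body with 20 kb on each side, for all peaks (top) and for strong peaks (bottom), 1 bar per library and no error bars since each line has 1 library. *Mmp3* and *Mmp10* had 0 or 1 peaks in the SMC lines, and strong peaks at *Plaur* numbered 4 in both non-SMC lines and 0 and 1 in the SMC lines.

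Merging the 4 lists wherever peaks overlapped gave 119 regions in the windows, of which 76 had a peak in 1 library alone. A peak in both non-SMC lines but in no SMC line (non-SMC-only) was seen at 15 regions and the reverse (SMC-only) at 2, while 9 regions had a peak in all 4 lines. Over the genome, 7.33% of the 357570 regions were non-SMC-only, 4.37% SMC-only and 3.81% shared by all 4. The order of the types rested on having both SMC lists. Without SMC#1, 21 regions were non-SMC-only and 28 SMC-only, and without SMC#2 there were 18 of each, since the SMC-only class then needed a peak in 1 list only. In the genome the SMC-only share rose to 37.8% and 24.7% in the same settings, against 26.7% and 19.1% of the regions at the 9 genes, and the non-SMC-only share was 9.2% and 12.2% against 20% and 19.1%. Without non-SMC#1 or without non-SMC#2 the non-SMC-only share at the 9 genes was 33.7%, nearer to the 32.3% and 28.7% of the genome. Per 100 kb of window, the 9 genes had 3.2 non-SMC-only, 0.427 SMC-only and 1.92 shared regions, against 1.28, 0.763 and 0.871 in the windows of all protein-coding genes. Both non-SMC-only and shared regions were thus denser than in the joined windows of all genes, and SMC-only regions, 2 in number, sparser. The 9 windows made up 469 kb and the 5782 joined windows of all genes 1428744 kb, and their lengths were not matched. All 9 genes had at least 1 non-SMC-only region (50.9% of all genes did), 5 had at least 2 (27.2%), and 8 had more non-SMC-only than SMC-only regions (37.6%). None had more SMC-only than non-SMC-only regions, which 18.3% of all genes had. *Plau* had 3, a number that 14.3% of all genes reached, and 2.28% of genes had them as densely. Of 39 regions with a strong peak, 30 or 76.9% were strong in non-SMC lines and in no SMC line, against 56.4% of such regions in the genome, and 5 or 12.8% were strong in SMC lines and in no non-SMC line, against 28.0%. The share strong in both non-SMC lines, 8 regions or 20.5%, was near the 20.1% of the genome, whereas 22 or 56.4% were strong in 1 non-SMC line and no SMC line, against 36.2%. Of these 22, 18 were strong in non-SMC#1 and 4 in non-SMC#2, and in the genome non-SMC#1 held 83.9% of such regions. Without non-SMC#1, 13 of 22 strong regions or 59.1% were strong in non-SMC#2 and in no SMC line, against 37.5% in the genome.

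**Figure D2:**
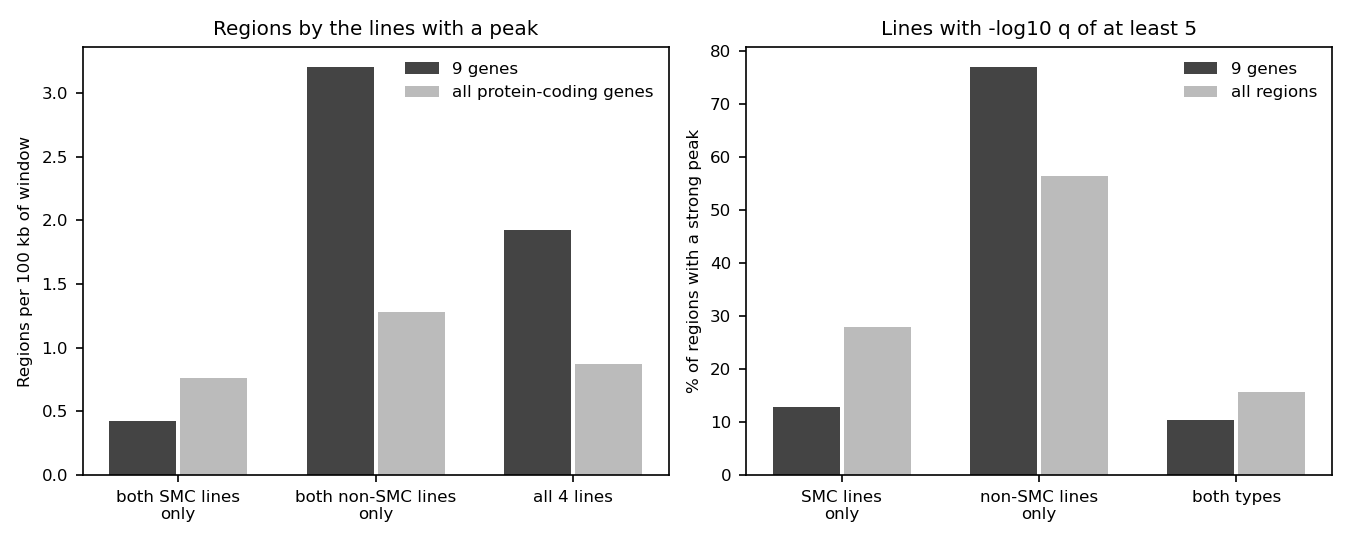
The left bars give regions per 100 kb of window by the lines that had a peak, for the 9 genes and for all protein-coding genes, and the right bars give the share of regions with a strong peak by the type of line in which it was strong. Non-SMC-only regions stood at 3.2 against 1.28 per 100 kb, and 76.9% against 56.4% of the strong regions were strong in non-SMC lines alone.

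The 15 non-SMC-only regions lay between 22 and 24480 bases from the TSS of their gene. For each of the 15 the nearest TSS was that of the member gene, 10 were intergenic, 4 lay in an intron of the gene and 1 in an intron of *Syn1*, the host of *Timp1*. They were strong in at least 1 non-SMC line at 13 of 15 and in both at 5. These 5 were the region upstream of *Mmp9*, the one downstream of *Mmp10*, the distal one at *Plau*, the intronic one at *Plaur* and the one upstream of *Timp1*.

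**Figure D3:**
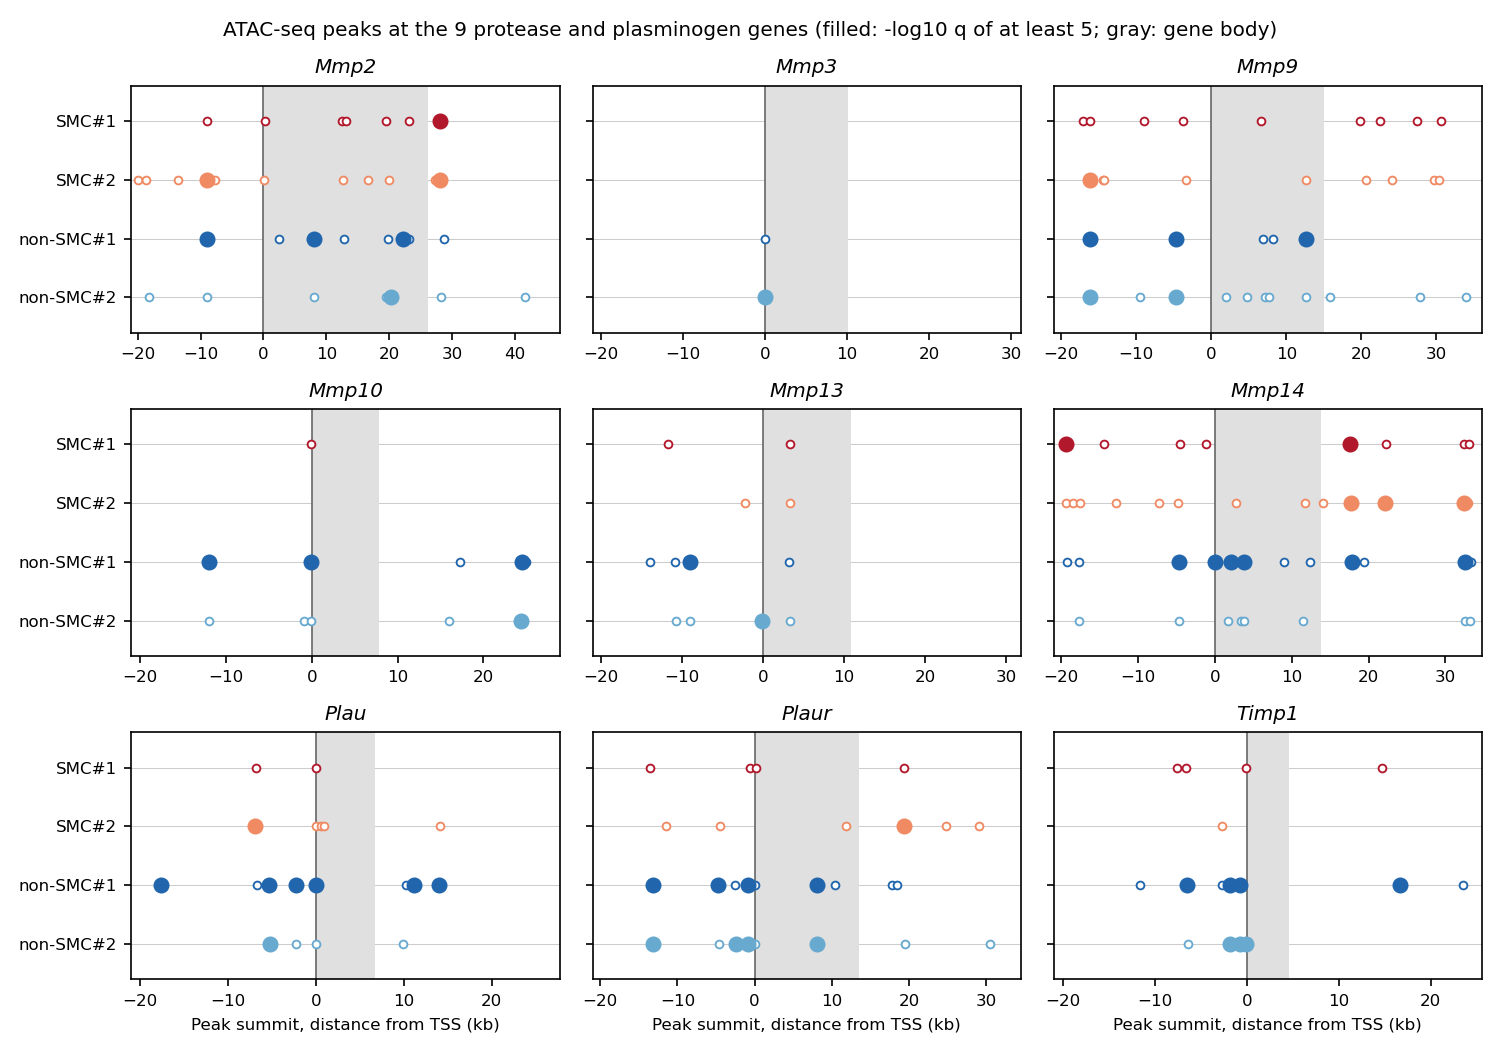
Each panel shows 1 gene, with the distance of peak summits from the TSS in kb on the horizontal axis, the 4 libraries as lines, the gene body in gray and strong peaks filled. The windows of *Mmp3* and *Mmp10* were nearly empty in SMC lines. At *Plaur* and *Timp1* filled points stood mostly in both non-SMC lines, and at *Plau* mostly in non-SMC#1 alone. *Mmp2*, *Mmp9* and *Mmp14* had at least 5 peaks in every line.

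*Mmp3*, *Mmp10* and *Mmp13* encode the stromelysins 1 and 2 and collagenase 3 and lie in 1 cluster of MMP genes on chromosome 9. At *Mmp3* (ENSMUSG00000043613, 10 exons) the only region of the window was at the promoter, chr9:7445637-7445931 in mm10, with its summit at -22 bases from the TSS. Its fold enrichment was 3.62 in non-SMC#1 and 7.32 in non-SMC#2, the latter at percentile 89.3 of its list, with pileups of 8 and 11 reads. No peak of either SMC line fell anywhere in the 50.2 kb window. *Mmp3* was the only member with a non-SMC-only promoter, defined as the 6 kb centered on the TSS, a pattern of 2.45% of all promoters, and none had the SMC-only pattern of 3.08%. With all libraries scaled to the shallowest and p up to 0.01, no member promoter was non-SMC-only.

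*Mmp10* (ENSMUSG00000047562) had 1 peak in SMC#1, none in SMC#2 and 5 in each non-SMC line. The promoter region chr9:7501811-7502518 had fold 9.66 in non-SMC#1, 3.66 in non-SMC#2 and 2.75 in SMC#1, at percentiles 89.1, 61.1 and 19.7 of their lists. The weak SMC#1 peak kept this promoter out of the non-SMC-only class. A pair of distal intergenic regions was non-SMC-only, and 3 others, at 15966, 17249 and 25001 bases, had a peak in 1 non-SMC line. The upstream one, chr9:7490165-7490691, had its summit at -11966 bases and fold 5.63 and 4.27 in non-SMC#1 and #2, and the downstream one, chr9:7526049-7526967, had its summit 24480 bases from the TSS and fold 10.2 and 9.43. The downstream region was strong in both non-SMC lines and held the highest peaks of the window in both. The 121 bases around these summits each held 1 AP-1 element, shown in capitals.
*Mmp10*, upstream region (chr9:7490326-7490446, plus strand): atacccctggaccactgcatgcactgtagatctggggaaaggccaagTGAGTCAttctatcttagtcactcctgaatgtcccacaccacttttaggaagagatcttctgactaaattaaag
*Mmp10*, downstream region (chr9:7526772-7526892, plus strand): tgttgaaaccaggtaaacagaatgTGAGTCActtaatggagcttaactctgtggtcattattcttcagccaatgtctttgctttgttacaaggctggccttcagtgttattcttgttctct

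*Mmp13* (ENSMUSG00000050578) had 2 peaks in each SMC line and 4 in each non-SMC line. Its non-SMC-only regions lay upstream, chr9:7261647-7261885 with fold 2.52 and 3.66 and chr9:7262479-7263762 with fold 6.67 and 3.66 in non-SMC#1 and #2. The second was strong in non-SMC#1 and the first in neither line. The promoter peak at -53 bases was seen in non-SMC#2 alone, with fold 6.1, and non-SMC#1 had no peak in the promoter window. SMC#2 had a peak of fold 3.55 at -2216 bases, and a weak region in intron 4 was shared by all 4 lines with fold between 2.36 and 3.22.

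The same counts were read over the whole cluster on chromosome 9, which runs from *Mmp13* to *Mmp7* and holds 9 protein-coding MMP genes in 427 kb (chr9:7272514-7699585). By their summits, 3 peaks of SMC#1, 3 of SMC#2, 24 of non-SMC#1 and 15 of non-SMC#2 lay in it. The median tile of the same length in the genome held 11, 22, 16 and 19 peaks, so that the SMC lines were below and the non-SMC lines near the usual density. Tiles were counted with at most 3 peaks in each SMC line and at least 15 in each non-SMC line. The cluster itself had 24 in non-SMC#1, above that cutoff. Of 5936 tiles of this length with a peak, 15 or 0.253% met both limits. This share was computed after the counts of the cluster had been seen. The cluster held 5 non-SMC-only regions, no SMC-only region and 2 shared by all 4 lines, out of 32.

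**Figure D4:**
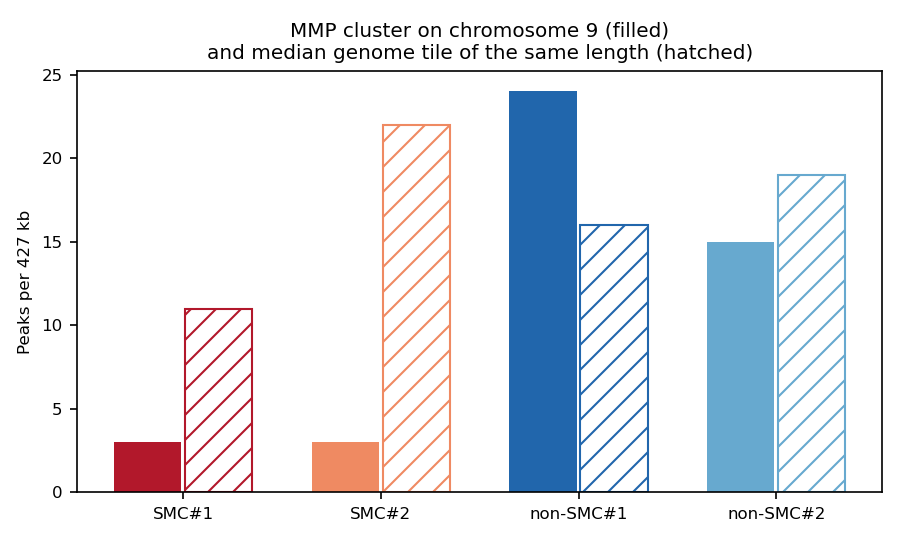
Filled bars give the number of peaks with a summit in the 427 kb MMP cluster on chromosome 9 in each library, and hatched bars the median over genome tiles of the same length. The SMC lines had 3 peaks each against medians of 11 and 22, and the non-SMC lines 24 and 15 against 16 and 19.

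The gelatinases *Mmp2* and *Mmp9*, which degrade the type IV collagen of basement membranes, had peaks in number in all 4 lines. *Mmp2* (ENSMUSG00000031740, chromosome 8) had 7 and 11 peaks in SMC#1 and #2 and 8 and 7 in non-SMC#1 and #2, so the groups overlapped, as they did in strong peaks, with 1 and 2 against 3 and 1. Its 1 non-SMC-only region, chr8:92834849-92835450 in intron 5, had fold 7.5 and 4.49 in non-SMC#1 and #2. Regions in all 4 lines were found upstream at -9017 bases, in intron 11 and downstream at 28028 bases, the last pair being nearer to the TSS of *Lpcat2*. The intron 11 region, chr8:92846649-92847830, was strong in non-SMC#2 alone, with fold 9.98 against 3.48, 2.59 and 2.71 in the other lines, and the downstream region was strong in both SMC lines alone, with fold 6.68 and 5.6. In the 1 kb centered on the TSS the only peaks were weak ones of the SMC lines, with fold 3.31 at 207 bases and 3.01 at 28 bases.

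*Mmp9* (ENSMUSG00000017737, chromosome 2) had 9 peaks in each SMC line, 5 in non-SMC#1 and 11 in non-SMC#2, again with overlap. Its strong peaks numbered 0 and 1 in SMC#1 and #2 and 3 and 2 in non-SMC#1 and #2, without overlap. Its non-SMC-only region, chr2:164935731-164936351 with a summit at -4721 bases, was strong in both non-SMC lines, with fold 5.39 and 8.69 and -log10 q of 7.86 and 13.1. A second upstream region at -16136 bases, nearest to the TSS of *Zfp335*, was shared by all 4 lines with fold 4.84, 5.64, 7.02 and 6.14 and strong in all but SMC#1. The promoter, centered on the upstream end of the gene record, had 1 peak, of fold 2.76 in non-SMC#2, at percentile 24.3 of its list. Distances at *Mmp9* are from that end. Summits from 2005 to 7113 bases lay outside its longest coding transcript, and the summit at 7750 bases in intron 1. Between 6593 and 7750 bases, outside the promoter as defined, peaks had fold 2.85 in SMC#1, 3.82 in non-SMC#1 and 2.25 and 3.43 in non-SMC#2. None of these was strong. The local background under the peaks of this window was a median of 1.65, 2.77, 1.49 and 1.91 times that of the library, highest in SMC#2. Its only SMC-only region, in intron 1 of the neighbor *Slc12a5*, was weak with fold 3.23 and 2.28.

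*Mmp14* (ENSMUSG00000000957, chromosome 14) encodes the membrane-type MMP that activates the MMP2 precursor at the cell surface. It had 8 and 13 peaks in SMC#1 and #2 and 13 and 8 in non-SMC#1 and #2, a mean of 10.5 ± 3.54 in each type. The order of the types turned between the line pairs. Intron 1 held both non-SMC-only regions, chr14:54433144-54433770 with fold 5.12 and 4.44 and chr14:54435291-54435556 with fold 6.49 and 3.41 in non-SMC#1 and #2, strong in non-SMC#1 alone. The second had an AP-1 element 6 bases from its summit, in capitals here.
*Mmp14*, intron 1 (chr14:54435305-54435425, plus strand): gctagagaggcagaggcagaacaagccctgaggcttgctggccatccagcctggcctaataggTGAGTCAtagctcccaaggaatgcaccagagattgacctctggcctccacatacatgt
The promoter had a peak in all 4 lines, as 48.7% of promoters did, and its highest peaks were at percentiles 7.01, 22.9, 67.1 and 73 in SMC#1 and #2 and non-SMC#1 and #2. In the non-SMC lines these were the peaks of the first intron 1 region. Downstream, toward *Lrp10*, 1 region was SMC-only, with fold 2.82 and 6.89 at 22182 bases. The 3 regions in all 4 lines lay at the first exons of *Mrpl52* and *Lrp10* or in intron 1 of *Lrp10*, and none at *Mmp14* itself.

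*Plau* (ENSMUSG00000021822, chromosome 14, 11 exons), the gene of urokinase, had 3 non-SMC-only regions and no SMC-only region. Its window held 2 and 5 peaks in SMC#1 and #2 and 8 and 4 in non-SMC#1 and #2, so the groups overlapped. Strong peaks numbered 0 and 1 against 6 and 1, so that non-SMC#1 alone stood above the SMC lines. Its promoter was open in all 4 lines. The promoter region chr14:20836167-20836995 had fold 5.02 in SMC#1, 3.75 in SMC#2, 6.76 in non-SMC#1 and 4.3 in non-SMC#2, at percentiles 80.9, 72.6, 77.9 and 72.2 of their lists. The region with the highest peak of *Plau* in both non-SMC lines was chr14:20831118-20831641, with its summit at -5337 bases, fold 11.1 and 5.81 and pileups of 59 and 10 reads. It was strong in both non-SMC lines, while the SMC lines had a peak further upstream, at -6823 and -6941 bases with fold 3.43 and 6.3. That neighboring region also had a peak of fold 3.46 in non-SMC#1. A region nearer to the promoter, chr14:20834141-20834581, had fold 3.69 and 5.29 in non-SMC#1 and #2, and a downstream region, chr14:20846449-20846937, had 2.83 and 4.88.

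The urokinase gene is known for an enhancer upstream of its promoter in which a PEA3 site, AGGAAA, runs directly into an AP-1-like site, TGAGGTCA, with a second AP-1 site, TGAATCA, nearby. All of these letters stood in the 121 bases around the summit at -2309 bases, in capitals here.
*Plau*, upstream region (chr14:20834291-20834411, plus strand): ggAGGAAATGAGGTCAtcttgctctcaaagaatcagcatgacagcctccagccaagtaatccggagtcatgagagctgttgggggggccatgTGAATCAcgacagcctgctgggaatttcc
The joined site began at -2367 bases from the TSS, and both non-SMC lines but no SMC line had a peak over it. These letters were looked for after the sequence had been seen. The joined site occurred within 100 bases of the summit of 9 of all 357570 regions, 4 of them among the 26224 non-SMC-only regions, and TGAATCA at 4.16% of all regions and 12.9% of the non-SMC-only ones.

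*Plaur* (ENSMUSG00000046223, chromosome 7, 7 exons), the gene of the urokinase receptor, had the highest fold enrichment of the 9 windows. This was the non-SMC-only region chr7:24470394-24470788 in intron 3, 8095 bases from the TSS, with fold 13.3 and 9.7, -log10 q of 40 and 16.6 and pileups of 49 and 23 reads in non-SMC#1 and #2. These peaks stood at percentiles 96.4 and 95.3 of their lists. An AP-1 element in capitals stood 23 bases from the summit.
*Plaur*, intron 3 (chr7:24470519-24470639, plus strand): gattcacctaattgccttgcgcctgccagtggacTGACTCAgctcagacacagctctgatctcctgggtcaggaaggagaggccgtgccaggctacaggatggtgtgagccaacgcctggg
A second non-SMC-only region, chr7:24459490-24460162, lay at -2466 bases with fold 3.46 and 5.28. The promoter region chr7:24461373-24462028 had fold 8 and 6.16 in non-SMC#1 and #2, 3.06 in SMC#1 and no peak in SMC#2, so that it was strong in both non-SMC lines alone. A region within *Irgc1*, chr7:24448944-24449463, had the same pattern, with fold 11 and 11.4 against 2.52 in SMC#1. In all, strong peaks of the window numbered 0 and 1 in SMC#1 and #2 and 4 in each non-SMC line. The one strong SMC peak, at 19356 bases with fold 4.11, lay at a region where SMC#1 and non-SMC#2 also had peaks, of fold 5.24 and 3.26. The local background under the peaks of this window was a median of 1.42, 1.46, 1.9 and 2.99 times that of the library in SMC#1 and #2 and non-SMC#1 and #2. Under the promoter region it was 1.39 times in SMC#1, 3.45 in non-SMC#1 and 4.02 in non-SMC#2. Its part in these counts was not tested.

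*Timp1* (ENSMUSG00000001131, chromosome X, 6 exons), the MMP inhibitor, had 4 and 1 peaks in SMC#1 and #2, none strong, and 7 and 4 in non-SMC#1 and #2, of which 4 and 3 were strong. The promoter region chrX:20869124-20870336 had fold 7.36 and 6.35 and -log10 q of 32.7 and 9.76 in non-SMC#1 and #2, against 2.52 and 0.411 in SMC#1. The peak of SMC#2 in the promoter window, of fold 2.76, lay outside that region. A non-SMC-only region at -1809 bases, chrX:20868145-20868537, was strong in both non-SMC lines with fold 4.09 and 5.68. The highest peak of the window, of fold 12.1 at 16609 bases in intron 5 of *Syn1*, was found in non-SMC#1 alone. The local background was raised here in the non-SMC lines, with medians of 3.32 and 3.6 times that of the library against 1.65 and 1 in SMC#1 and #2, and its part in these counts was not tested.

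Across the 9 promoters, then, those of *Plaur* and *Timp1* had strong peaks in both non-SMC lines but in no SMC line, a pattern of 5.30% of all promoters, and none had the reverse, which 1.63% had. *Mmp2* and *Mmp9* had no strong promoter peak in any line, like 43.5% of promoters. By the highest peak in the promoter window, *Plau* differed least, with percentiles of 80.9, 72.6, 77.9 and 79.3 in SMC#1 and #2 and non-SMC#1 and #2, the last from the region at -2309 bases. At *Timp1* they were 8.23, 32.1, 80.9 and 85.5. *Mmp2* was the only gene at which both SMC lines stood above both non-SMC lines, with 42.4 and 45.8 against 22.8 in non-SMC#1 and no peak in non-SMC#2.

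**Figure D5:**
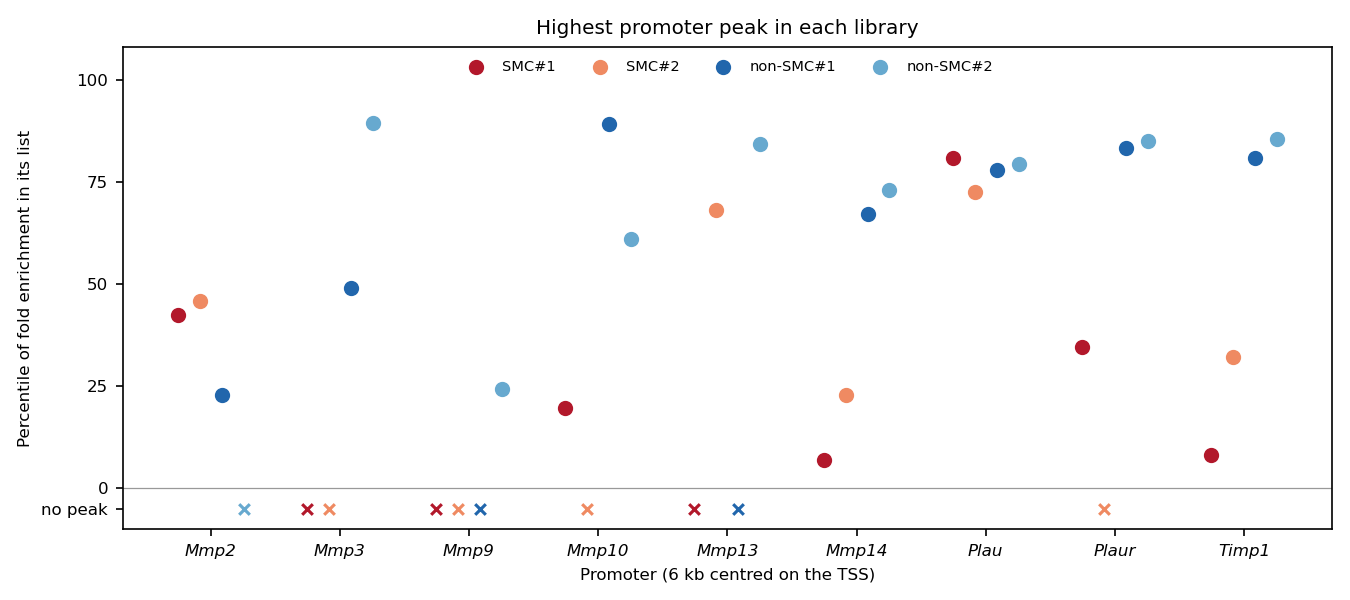
Points give, for the highest peak in the 6 kb promoter of each gene, the percentile of its fold enrichment within the list of its library, and crosses mark libraries without a peak. The points of *Plau* lie between 72.6 and 80.9 in all 4 lines, whereas those of *Timp1* are at 8.23 and 32.1 in the SMC lines and 80.9 and 85.5 in the non-SMC lines.

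Motifs were counted around the summits of the regions. The AP-1 element stood within 100 bases of the summit in 5 of the 15 non-SMC-only regions, or 33.3%, and in none of the 9 regions shared by all 4 lines or the 2 SMC-only ones. Genome-wide the share was 46.8% of non-SMC-only, 4.19% of SMC-only, 10% of shared and 11.3% of all regions. The share at the 9 genes ran from 27.8 to 53.3% over other settings, with 53.3% within 250 bases of the summit and 50% with strong peaks alone. The 5 regions were the *Mmp3* promoter, both distal non-SMC-only regions of *Mmp10*, intron 1 of *Mmp14* and intron 3 of *Plaur*. PEA3 letters stood in 7 of the 15, or 46.7% against 26.6% of all non-SMC-only regions, and RUNX letters TGTGGT or TGCGGT in 5, or 33.3% against 31.6%. TEAD letters GGAATG were found in 2 of the 15, or 13.3% against 19.3% of all non-SMC-only regions and 12.6% of all regions.

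Of 35 other genes of the system, fixed as a list by function, 34 were found among protein-coding genes. More non-SMC-only than SMC-only regions were counted at 21 of the 34, more SMC-only regions at 6 and equal numbers at 7, where 37.6% and 18.3% of all genes had more of the one or the other. Windows of neighboring genes in the chromosome 9 cluster shared regions, so these genes are not all separate observations. Their promoters were non-SMC-only at 2, *Mmp1b* and *Mmp27* of the chromosome 9 cluster, and SMC-only at 2, *Mmp11* and *Timp4*, while 11 had a peak in all 4 lines. With strong peaks alone, 7 promoters of 34 were non-SMC-only, against 5.30% of all promoters, and none SMC-only. These included *Anxa2* and *S100a10*, which together bind plasminogen at the cell surface, *Furin*, which activates membrane-type MMPs, *Cd44*, the surface protein of the sort, *Mmp17* and *Mmp28*. Since non-SMC cells were sorted as CD44hi, the count of *Cd44* among the 7 is not independent of the labels. The *S100a10* promoter had fold 10.1 and 11 in non-SMC#1 and #2 against 3.4 in SMC#2 and no peak in SMC#1. For the plasminogen genes, 8 of 10 had more non-SMC-only regions, with 7 at *Anxa2* and 6 at *S100a10*. The other inhibitors were split, with more non-SMC-only regions at 2 of 4 and more SMC-only regions at the other 2.

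Fibroblasts and immune cells also express many of these proteases, so the promoters and windows of other cells' markers were also read. Of 4 fibroblast markers, the promoters of *Col1a1* and *Col1a2* had strong peaks in both non-SMC lines alone and those of *Pdgfra* and *Dcn* had no strong peak in any line. Of 3 immune markers, *Ptprc* and *Spi1* had no strong promoter peak, and *Cd68* had 1 in non-SMC#1, with fold 3.85. Of 3 endothelial markers, *Pecam1* had a promoter peak in the non-SMC lines alone, with fold 6.65 and 3.05, and *Cdh5* and *Kdr* had promoter peaks in lines of both types. In their windows, non-SMC-only outnumbered SMC-only regions at 3 of 4 fibroblast, 3 of 3 immune and 2 of 3 endothelial markers, beside 8 of the 9 protease genes. Whether such cells had a part in the differences above was not tested.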

How the data were processed

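ATAC-seq was performed on 2 SMC and 2 non-SMC lines, 1 library each. The authors mapped reads to mm10 with Bowtie2 (2.3.4), removed duplicates with sambamba and called peaks in each library with MACS2 (2.1.1), with settings not given in the sources used here. The deposited lists give per peak a fold enrichment (a ratio of pileup to local background), its p-value and q-value as -log10, and a score, which was not used. Peaks off chromosomes 1 to 19, X and Y (61 to 85 per library) were left out. Gene models were GENCODE M21 and sequences GRCm38.p6. Windows were gene bodies with 20 kb on each side, promoters the 6 kb centered on the TSS, taken as the upstream end of the gene record. Overlapping peaks (1 base or more) of the lists were joined into regions. Pileup and background were solved from fold and p, since MACS2 adds 1 to both and takes a Poisson p, and 100% of 4839 simulated peaks were recovered within 1%. Overlaps were tested against bedtools 2.31.1 with no difference. Motifs were counted within 100 bases of the highest summit. Values are read within their own list, and precision is limited to 1 library per line.

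All 9 genes were named, each with its peaks, its strong regions of a type or shared by all 4 lines, its promoter peaks and its highest peaks. Other regions, the remaining strong promoters of the wider list and its examples were named after their values had been seen. The genes and lists were chosen with earlier results of these data known. Alternatives were strong peaks alone (-log10 q from 5 up), equal numbers of top peaks, scaling to the shallowest library with p up to 0.01 or 1e-05, flanks of 5 and 50 kb, promoters of 2 and 1 kb, all TSSs, reciprocal overlap of 50%, motif windows of 50 and 250 bases, line pairs apart and each library left out, which for strong regions was chosen once the data were known. Tools were Python 3.11.15, pandas 2.3.3, numpy 2.4.6, scipy 1.17.1, matplotlib 3.10.9 and pysam 0.24.0.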

Additional observations from a re-analysis of the deposited data

Results flagged for a closer look

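At 4 genes the difference of SMC minus non-SMC had the opposite sign in the pair of lines numbered 1 and the pair numbered 2, and the difference between the pairs was not tested. Peaks in the window differed by -1 in pair 1 and 4 in pair 2 at *Mmp2*, by 4 and -2 at *Mmp9*, by -5 and 5 at *Mmp14* and by -6 and 1 at *Plau*. Strong peaks differed by -2 and 1 at *Mmp2* and by -4 and 3 at *Mmp14*.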

How the results depend on the processing

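The count of peaks in the 9 windows was lower in SMC under every alternative run, with a difference of -23 at flanks of 50 kb, -11.5 with peaks scaled to the shallowest library at p up to 1e-05, -19 to -9 with 1 library left out and -5 at the least, within line pair 2. Non-SMC-only regions numbered 8 with strong peaks, 25 with flanks of 50 kb and 6 with scaling at 1e-05, against 2 SMC-only regions that became 1 with strong peaks, 0 with flanks of 5 kb, 7 with 50 kb, 1 with equal numbers of top peaks and 0 with scaling at 1e-05. Leaving out 1 library gave 18 to 35 non-SMC-only and 3 to 28 SMC-only regions, and the order of the types was lost without an SMC line. There were 21 non-SMC-only against 28 SMC-only regions without SMC#1, 18 against 18 without SMC#2, 35 against 5 without non-SMC#1 and 35 against 3 without non-SMC#2, since fewer lists had to share or lack a peak. Without non-SMC#1 the non-SMC-only share was 33.7% at the 9 genes and 32.3% in the genome. The SMC-only share was then 4.81% and 6.23%. Without non-SMC#2 the non-SMC-only share was 33.7% and 28.7%, and the SMC-only share 2.88% and 6.05%. The share of strong regions that were strong in non-SMC lines alone, an alternative added after the data had been seen, ran from 59.1% without non-SMC#1 to 91.7% without SMC#2. In the genome this share was 37.5% and 76.1% in the same settings, so it moved there too. Non-SMC-only promoters numbered 2 with strong peaks, 0 with scaling at 0.01 and 2 at 1e-05, and 1 to 3 with 1 library left out (3 without SMC#1, 2 without non-SMC#1). An SMC-only promoter, that of *Mmp2*, appeared with promoters of 2 kb (1) and 1 kb (1) and with equal numbers of top peaks (1), and 0 to 1 did with a library left out, 1 of them without non-SMC#1. Of the other genes of the system, 7 had a non-SMC-only promoter with strong peaks, 1 with promoters of 2 kb, 5 with equal numbers of top peaks and 6 with scaling at 0.01 and at 1e-05, and 3 to 8 with 1 library left out (8 without SMC#2, 4 without non-SMC#1, 5 without non-SMC#2). The share with an AP-1 element ran from 27.8 to 53.3% over its alternatives, the lowest without SMC#2. The causes of these shifts were not tested beyond the lists dropped.

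No paired test was made, since each line pair holds 1 library of each type and no result comes from a test, and values within line pairs are given instead. In the pairing by line number (replicate block), pair 1 alone gave 42 regions with a non-SMC peak only and 19 with an SMC peak only, and pair 2 gave 40 and 35. The difference in peaks was -23 in pair 1 and -5 in pair 2. After scaling to the shallowest library with p up to 0.01, the windows held 37, 13, 38 and 44 peaks in SMC#1 and #2 and non-SMC#1 and #2, so that SMC#1 came within 1 peak of non-SMC#1.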
